A study of Mus musculus with 12 samples.

Results

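The F1-23 line is a male (XY) hybrid mouse embryonic stem (ES) cell line whose strain the labels write as 129Sv-Cast/EiJ, and 4 clonal neural progenitor (NPC) lines, mC3, mE6, mB4 and mG3, had been derived from it. The members were chosen by these labels: the 1 ES library and the 4 NPC libraries, 5 of the 12 samples of the series, described over 14415 autosomal genes of 14899 genes in the deposited table. The ES cells had been kept with serum and leukaemia inhibitory factor (LIF) on mouse embryonic fibroblast feeders stopped from dividing with mitomycin C, and polyadenylated RNA was sequenced. Each clone is 1 library, so a clone's values describe the descendants of 1 cell, and the ES line has no second library here. A repeat library of mC3 was not analysed here.

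Every cell of the line carries one 129 and one Cast copy of each autosomal gene, so sequence differences between these strains tell which copy an RNA read came from. Most genes are read from both copies. Imprinted genes are read from the copy of 1 parent, and some other autosomal genes are read from a single copy that can differ between clones and then stays fixed as the cells divide, which is called random monoallelic expression. Neural progenitors grown from ES cells are self-renewing cells that give rise to neurons, astrocytes and oligodendrocytes, and the passage from one state to the other replaces most of the regulators of cell identity.

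The table's counts, taken as reads that could be given to an allele, summed to 65171172 over autosomal and X-linked genes in ES cells and to between 72230497 and 91955553 in the clones. Counts scaled to these totals, each multiplied by its TMM normalization factor (CPM), compare libraries within a gene. The authors' FPKM, scaled to transcript length, compares genes. The table holds a gene only where an NPC clone of the series has at least 11 counts, so genes used by ES cells alone are missing, and every share of genes given here is a share of genes seen in NPC. In all that follows, clone values are given in the order mC3, mE6, mB4 and mG3. Fold changes and adjusted p-values come from edgeR's quasi-likelihood test of the 4 clones against the ES library, adjusted over all genes. With 1 ES library the spread was measured among the 4 clones alone, and the ES library was assumed to vary like them. These p-values therefore cover the spread between clones and no measured spread of ES cells. The ± after a log2 change is a standard error, taken as the size of the change divided by the square root of the test's F. An alternative fit took all 10 libraries of this line and of the XX line F1-21.6, whose clones then enter the spread too. Another used limma on log2(FPKM + 1). Their adjusted p is given beside a level change described here where it missed 0.05. In bulk RNA, fewer cells of a type and less RNA per cell cannot be told apart.

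The clones carried a changed autosomal transcriptome. Of 13976 genes tested, 4121 (29.5%) rose in the clones and 3655 (26.2%) fell, at an adjusted p of 0.05. Counts of list members given below are read against these shares. At an unadjusted p of 0.05 the number in both directions was 8651. At least 4-fold changes made up 2023 of the rises and 1331 of the falls, and the median log2 change over all genes tested was 0.11. Leaving out 1 clone at a time left 3492 to 3981 rises and 3117 to 3583 falls.

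**Figure D1:**
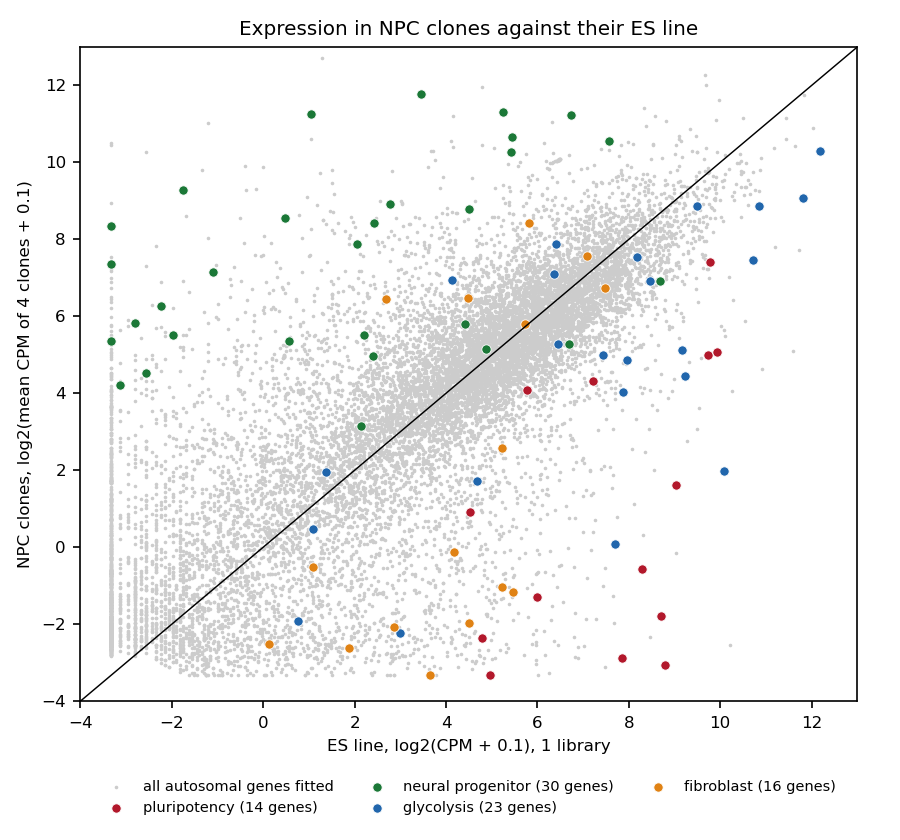
Each point is an autosomal gene, with its level in the ES library on the x axis and the mean over the 4 NPC clones on the y axis, both as log2(CPM + 0.1), with 4 gene lists in colour and equal levels as the line. All 14 pluripotency genes lie below the line and most of the 30 neural progenitor genes above it, some of them at 0 counts in ES cells on the left edge, while 23 glycolysis and 16 fibroblast genes lie mostly below it.

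The largest rises were of genes with no counts in the ES library, neural genes among them. Olig2, a transcription factor of progenitors of the oligodendrocyte and motor neuron lineages, was at 0 CPM in ES cells and 329, 333, 359 and 293 CPM in the clones, which is at least 7835-fold higher when the ES level is set to the floor of 3 counts (edgeR adjusted p = 0.000107). Fabp7, which radial glia use to bind and carry fatty acids, was at 0 CPM in ES cells and 222, 161, 163 and 108 CPM in the clones (at least 3906-fold higher, edgeR adjusted p = 0.000413). Both were high in all 4 clones, with mG3 the lowest. The Mir9-1 entry, which spans the host transcript of a neural microRNA on chromosome 3, 88013196 to 88035440 (mm9), held 0 CPM in ES cells and 1647, 1425, 1864 and 825 CPM in the clones (at least 34374-fold higher, edgeR adjusted p = 0.000421), and it shares its counts with an unnamed overlapping transcript. Dock10, which activates small GTPases, was at 0 CPM in ES cells and 515, 536, 536 and 385 CPM in the clones (at least 11764-fold higher, edgeR adjusted p = 0.000152). The muscarinic receptor gene Chrm3, the ubiquitin ligase gene Trim9, the neurexophilin gene Nxph1 and 2610017I09Rik were the other four of the 8 largest rises. A count of 0 refers to reads over strain differences, and the authors' FPKM for Fabp7 was 0.0295 in ES cells and 3426, 2481, 2519 and 1659 in the clones.

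The largest falls held genes of epithelial adhesion and of the early embryo. Cdh1, which encodes E-cadherin, the adhesion molecule that holds ES cell colonies together, was at 442 CPM in ES cells and 0.0552, 0.0248, 0 and 0 CPM in the clones (log2 change -14.24 ± 0.53, edgeR adjusted p = 0.000154). Epcam, an epithelial surface molecule, was at 230.1 CPM in ES cells and 0.0221, 0.0373, 0.0860 and 0 CPM in the clones (log2 change -12.67 ± 0.57, edgeR adjusted p = 0.000212). The ES level of both lay above every clone by more than 2 orders of magnitude. Tcfap2c, the transcription factor AP-2 gamma, was at 64.2 CPM in ES cells and 0 CPM in all 4 clones, which is at least 7021-fold lower with 3 counts over the group of clones as the floor (edgeR adjusted p = 0.00158). Trh, the precursor of thyrotropin-releasing hormone, was at 1181 CPM in ES cells and 0.199, 0.0869, 0 and 0 CPM in the clones (log2 change -13.90 ± 0.82, edgeR adjusted p = 0.000318). The others among the 8 largest falls were Cobl, an actin nucleator, Morc1, a silencer of transposons in germ cells, and the maternally expressed imprinted RNAs H19 and Rian.

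The labels were set against markers of both cell types. Of 36 pluripotency genes listed, 14 had an autosomal entry, all 14 fell (median log2 change -7.57), and their summed level went from 4989 CPM in ES cells to between 247 and 308 CPM in the clones. Tcfcp2l1, a factor of the naive state, was at 415 CPM in ES cells and 0.110, 0.224, 0.272 and 0.161 CPM in the clones (log2 change -11.10 ± 0.31, edgeR adjusted p = 0.000126). Lin28b, which blocks let-7 maturation, was at 31.1 CPM in ES cells and 0 CPM in all 4 clones (at least 3395-fold lower, edgeR adjusted p = 0.00247). The remaining pluripotency genes with a log2 change below -7 were Klf2, Klf5, Esrrb and Mycn. Of 37 neural progenitor genes, 30 were tested, 24 rose, 2 fell and 4 did not pass (median log2 change 6.05), and the summed level went from 1051 CPM to between 17832 and 20469 CPM.

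Among the progenitor regulators, Olig1 was at 0.196 CPM in ES cells and 647, 613, 754 and 475 CPM in the clones (log2 change 11.62 ± 0.52, edgeR adjusted p = 0.000212). Pou3f2, also called Brn2, a neural POU factor, was at 0 CPM in ES cells and 45.6, 38.4, 41.5 and 37.1 CPM in the clones (at least 970.5-fold higher, edgeR adjusted p = 0.000129). Nes, which encodes the intermediate filament nestin, was at 106 CPM in ES cells and 2507, 2498, 1834 and 2849 CPM in the clones (log2 change 4.51 ± 0.37, edgeR adjusted p = 0.000628). Nes, Sox9 and Bcan, like all genes named below that are not among the largest changes of a list, were chosen after their values were seen. Sox9, a glial and stem cell factor, had a log2 change of 9.41 ± 0.34, and Bcan, the brain proteoglycan brevican, of 10.29 ± 0.35. The 2 that fell are shared with ES cells: the stem cell factor Sox2, at 103 CPM in ES cells and 42.5, 33.6, 44.8 and 33.9 CPM in the clones (log2 change -1.41 ± 0.19, edgeR adjusted p = 0.00286), and the surface marker Prom1, at 409 CPM in ES cells and 139.9, 137, 90.6 and 119 CPM in the clones (log2 change -1.75 ± 0.23, edgeR adjusted p = 0.00259, and 0.0597 with all 10 libraries). Clones differed in single markers. Cspg4, which encodes the NG2 proteoglycan of oligodendrocyte precursors, was at 4.54 CPM in ES cells and 58.6, 53.9, 70.2 and 0.540 CPM in the clones (edgeR adjusted p = 0.274), so that 3 clones lay above ES cells and mG3 below.

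Markers of differentiated brain cells did not move as 1 group. The counts of each list here stand against 29.5% of all genes that rose and 26.2% that fell. Of 11 astrocyte genes tested, 5 rose, 1 fell and 5 did not pass. Sparcl1, a secreted matrix protein of astrocytes, had a log2 change of 12.60 ± 1.17, the glutamate transporter Slc1a2 of 6.73 ± 1.13, and Mlc1 and the water channel Aqp4 had 0 counts in ES cells (at least 396-fold higher and at least 22.1-fold higher). In the fit with all 10 libraries the adjusted p was 0.0831 for Slc1a2 and 0.150 for Aqp4, so both calls depended on the libraries in the fit. For Slc1a2 it was 0.0511 on log2(FPKM + 1). Clu, which encodes the chaperone clusterin, fell (log2 change -5.08 ± 0.54, edgeR adjusted p = 0.00139). Of 8 oligodendrocyte genes, Opalin passed as higher and Mobp, Gm98 (Myrf) and Mbp as lower, and of 12 neuronal genes Gad1 and Elavl4 were higher and Nefl, Elavl3, Tubb3 and Nefm lower. Opalin had an adjusted p of 0.0583 without mC3, 0.0537 without mE6 and 0.0738 without mG3, Mbp of 0.0836 without mC3, 0.0524 without mE6 and 0.0746 without mG3, Gad1 of 0.0524 without mE6 and Elavl4 of 0.0689 without mC3, 0.0536 without mE6, 0.0756 without mB4 and 0.0579 without mG3, so these calls depended on the clones included. With all 10 libraries it was 0.150 for Opalin and 0.204 for Elavl4, and on log2(FPKM + 1) 0.313 for Opalin and 0.0917 for Gad1. Endoderm genes gave 0 rises and 3 falls (Lrp2, Amn and Cubn) of 7, none of which held without mE6, where the edgeR adjusted p of the 3 was 0.0621, 0.0645 and 0.0581, and without mG3 that of Lrp2 was 0.0632 and that of Cubn 0.0556. All 10 libraries gave 0.0811 for Lrp2 and 0.0974 for Amn. Mesoderm genes gave 2 rises (Kdr and Foxc1) and 3 falls (Eomes, Tbx6 and the Brachyury gene T) of 6, and the adjusted p of Tbx6 was 0.0516 without mC3 and 0.0513 without mG3 and that of T 0.217 with all 10 libraries.

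Fibroblast genes bear on the ES library because it was grown on feeders. Of 16 tested, 8 fell, 1 rose and 7 did not pass, and the summed level over all 17 was 637 CPM in ES cells and 772, 1012, 1095 and 644 CPM in the clones. Col1a1, the main fibrillar collagen, was at 44.2 CPM in ES cells and 0.740, 0.509, 0.0430 and 0.0804 CPM in the clones (log2 change -6.99 ± 1.16, edgeR adjusted p = 0.00531). Pdgfrb, a growth factor receptor of mesenchymal cells, was at 12.4 CPM in ES cells and 0 CPM in all 4 clones (at least 1357-fold lower, edgeR adjusted p = 0.00429). Postn and Tagln had log2 changes of -7.22 ± 1.36 and -6.59 ± 0.44, and Fbn1, which encodes the microfibril protein fibrillin, was the 1 that rose (log2 change 3.78 ± 0.39, edgeR adjusted p = 0.00123). The part of feeder RNA in these differences was not tested.

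**Figure D2:**
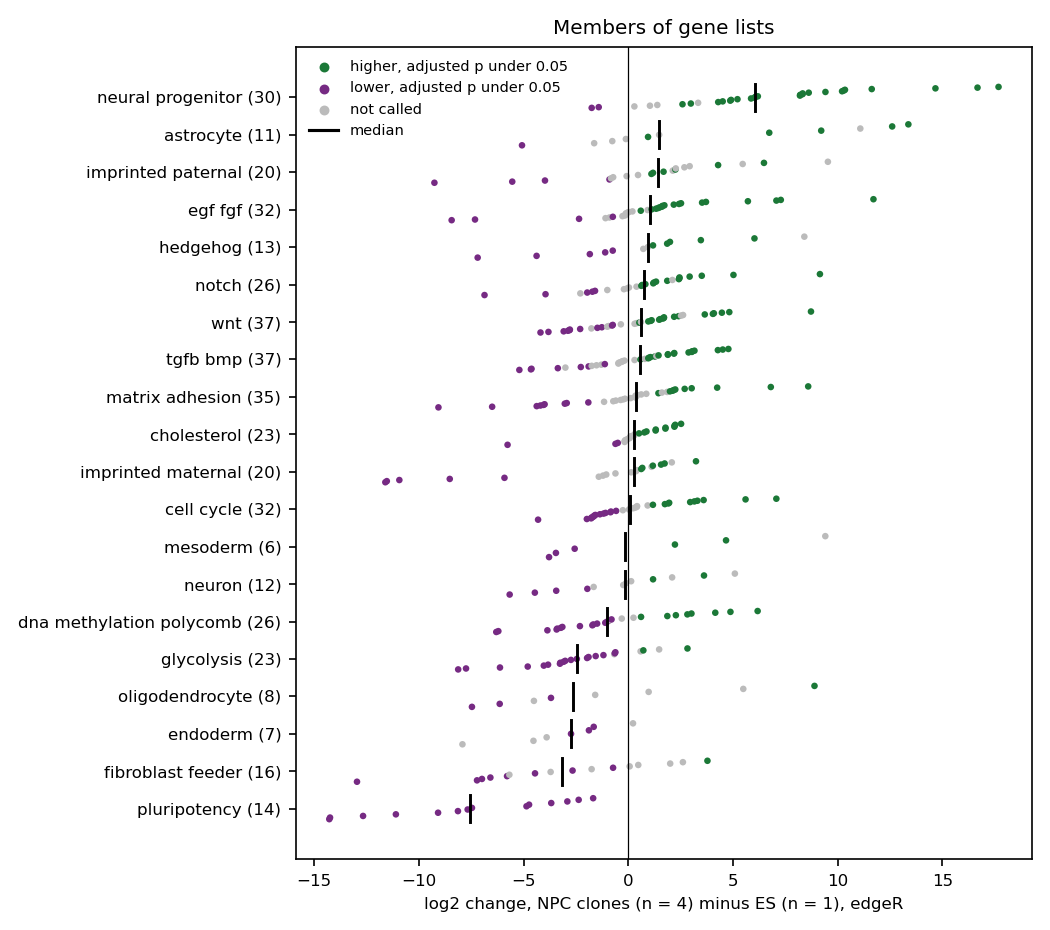
Each point is an autosomal member of a gene list, placed by its log2 change in the 4 NPC clones against the ES library on the x axis, with 1 line per list, a bar at its median and colour for the edgeR call. All 14 pluripotency genes lie on the lower side and 24 of 30 neural progenitor genes are called higher, while the signalling lists have members on both sides.

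Epidermal and fibroblast growth factors (EGF and FGF) keep neural progenitors dividing in culture. Of 32 genes of these pathways, 17 rose, 4 fell and 11 did not pass (median log2 change 1.02, against 0.11 over all genes). Among ligands, Fgf1 had a log2 change of 7.28 ± 0.41 and the EGF family ligand Areg of 11.71 ± 2.70 (adjusted p 0.120 on log2(FPKM + 1)), while Fgf5, a marker of the primed epiblast, fell (log2 change -7.32 ± 0.84, edgeR adjusted p = 0.00170). Among receptors, Egfr was at 15.1 CPM in ES cells and 905, 837, 728 and 699.5 CPM in the clones (log2 change 5.71 ± 0.28, edgeR adjusted p = 0.000225), and Erbb4 had a log2 change of 7.07 ± 0.79. Erbb3 was the receptor with the largest fall (log2 change -8.43 ± 1.05, edgeR adjusted p = 0.00214). Fgfr4 and Fgfr2 passed as lower with all clones, with log2 changes of -2.35 ± 0.73 and -0.74 ± 0.23, but the adjusted p was 0.0767 without mC3, 0.0639 without mE6 and 0.0720 without mB4 for Fgfr4 and 0.0754 without mE6 and 0.0822 without mB4 for Fgfr2. With all 10 libraries it was 0.0980 and 0.319. Among feedback genes of the pathway, Dusp6, a phosphatase of ERK kinases, had a log2 change of 3.52 ± 0.21 and Spry1 of 2.42 ± 0.14.

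Notch signalling holds progenitors undifferentiated through contact between neighbouring cells. Of 26 Notch pathway genes, 14 rose, 5 fell and 7 did not pass (median log2 change 0.74), against 29.5% and 26.2% of all genes that rose and fell. The ligand Dll1 and the receptors Notch1 and Notch2 had log2 changes of 2.44 ± 0.28, 1.86 ± 0.30 and 1.23 ± 0.28, and the ligand Jag2 fell (log2 change -6.87 ± 0.41, edgeR adjusted p = 0.000322). The Notch2 call was lost with all 10 libraries (adjusted p = 0.0727). Hes5, the target that represses neuronal genes, was at 0 CPM in ES cells and 1.72, 0.695, 0.946 and 0.184 CPM in the clones (at least 21.2-fold higher, edgeR adjusted p = 0.0273), with an adjusted p of 0.0526 without mE6 and 0.0513 without mB4 and of 0.1001 on log2(FPKM + 1). The coactivator Maml2 rose (log2 change 5.02 ± 0.30, edgeR adjusted p = 0.000325) and Rbpj, the DNA binding partner of the cleaved receptor, fell (log2 change -1.96 ± 0.15, edgeR adjusted p = 0.000568). The others that fell were Dtx1, Psen2 and Numbl.

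Of 37 genes of TGF-beta and bone morphogenetic protein (BMP) signalling, 17 rose, 7 fell and 13 did not pass (median log2 change 0.58). Among all genes 29.5% rose and 26.2% fell. The type I BMP receptor gene Bmpr1b was at 15.0 CPM in ES cells and 378, 407, 374 and 485 CPM in the clones (log2 change 4.78 ± 0.25, edgeR adjusted p = 0.000265), and the receptors Tgfbr2 and Bmpr2 had log2 changes of 4.28 ± 0.56 and 3.05 ± 0.21. The falls held the inhibitor Smad7 (log2 change -5.20 ± 0.47, edgeR adjusted p = 0.000841), the coreceptor Eng, the activin subunit Inhba and the activin receptors Acvr1b and Acvr2b. Tgfb1 and the target Id1 also passed as lower with all clones, with an adjusted p of 0.0677 without mE6 and 0.0624 without mB4 for Tgfb1 and 0.0794 without mC3, 0.0791 without mE6 and 0.0799 without mG3 for Id1, and of 0.0544 for Id1 with all 10 libraries.

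Of 37 Wnt pathway genes, 17 rose, 11 fell and 9 did not pass (median log2 change 0.61), where 29.5% of all genes rose and 26.2% fell. The frizzled receptors split: Fzd1, Fzd2, Fzd3 and Fzd4 rose, while Fzd5, Fzd6 and Fzd7 fell. Fzd1 had a log2 change of 4.82 ± 0.40 and Fzd5 of -4.19 ± 0.25. The R-spondin receptor Lgr5 had 1 count in ES cells, and its clone level was 469 times the ES level with a 95% counting interval of 84.1 to 18541, while its relative Lgr4 fell (log2 change -3.09 ± 0.33, edgeR adjusted p = 0.00138). The ligand Wnt5a was at 12.6 CPM in ES cells and 256, 299, 222 and 339.7 CPM in the clones (log2 change 4.47 ± 0.34, edgeR adjusted p = 0.000528), over a pair of overlapping entries of that name. Wnt4 and Lrp5 passed as lower with all clones, and their adjusted p was 0.0553 without mB4 and 0.0584 without mG3 for Wnt4 and 0.0649 without mC3, 0.0578 without mE6 and 0.0663 without mB4 for Lrp5. It was 0.143 for Wnt4 with all 10 libraries.

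Of 13 hedgehog signalling genes, 5 rose, 5 fell and 3 did not pass, where 29.5% of all genes rose and 26.2% fell. The coreceptors Gas1 and Boc rose (log2 change 6.02 ± 0.74, edgeR adjusted p = 0.00206 and log2 change 3.46 ± 0.56, edgeR adjusted p = 0.00491). Gli1, the transcription factor that is itself switched on by the pathway, was at 91.8 CPM in ES cells and 0.972, 0.733, 0.459 and 0.333 CPM in the clones (log2 change -7.19 ± 0.49, edgeR adjusted p = 0.000423). Ptch1, a receptor that is also a target, fell, with a log2 change of -1.10 ± 0.19, as did Gli2 (-1.84 ± 0.38). Smo, the membrane protein that Ptch1 holds in check, rose (1.86 ± 0.14). Kif7 was called lower from counts (log2 change -0.74 ± 0.13, edgeR adjusted p = 0.00685), whereas its FPKM was higher in the clones (4.17 in ES cells and 6.76, 6.26, 6.35 and 5.96 in the clones), so its direction depended on the measure.

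Genes of glucose breakdown fell widely. Of 23 tested, 18 fell, 2 passed as higher and 3 did not pass (median log2 change -2.46), and the summed level went from 16596 CPM in ES cells to 3125, 4080, 3791 and 4571 CPM in the clones. Slc2a3, a high-affinity glucose transporter, was at 1077 CPM in ES cells and 7.03, 2.20, 2.18 and 3.97 CPM in the clones (log2 change -8.12 ± 0.63, edgeR adjusted p = 0.000556). Slc16a3, a lactate exporter, had a log2 change of -7.75 ± 0.64, and the kinases Pdk1 and Pdk4, which hold pyruvate back from the mitochondria, of -4.80 ± 0.36 and -6.13 ± 1.43 (for Pdk4, adjusted p = 0.0980 with all 10 libraries). The first enzyme of the path, Hk2, had a log2 change of -4.03 ± 0.31 and the aldolase Aldoa of -2.74 ± 0.26. Ldha, which makes lactate, was at 1836 CPM in ES cells and 184, 539.9, 449 and 706 CPM in the clones (log2 change -1.97 ± 0.60, edgeR adjusted p = 0.0379), with an adjusted p of 0.0714 without mE6 and 0.0757 without mB4 and of 0.0879 on log2(FPKM + 1). Pfkm passed as higher (log2 change 0.72 ± 0.13, edgeR adjusted p = 0.00771), a call that was lost with all 10 libraries (adjusted p = 0.294). Gapdh was called higher from counts (log2 change 2.83 ± 0.30, edgeR adjusted p = 0.00136), whereas its FPKM was lower in the clones (5.10 in ES cells and 2.01, 2.24, 1.72 and 1.99 in the clones), so its direction depended on the measure.

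Of 23 cholesterol genes, 11 rose, 3 fell and 9 did not pass (median log2 change 0.29), where 29.5% of all genes rose and 26.2% fell. Abca1 and Abcg1, both lipid exporters, went opposite ways (log2 change 2.52 ± 0.27, edgeR adjusted p = 0.00144 and log2 change -5.77 ± 1.03, edgeR adjusted p = 0.00689), and the regulator Srebf1 and the enzyme Hsd17b7 rose with log2 changes of 2.21 ± 0.23 and 2.24 ± 0.24. With all 10 libraries the adjusted p of Abca1 was 0.120. The other falls, of Pmvk and Mvd, were small, -0.61 ± 0.1995 and -0.50 ± 0.14 on the log2 scale. Their adjusted p was 0.0984 without mE6, 0.0768 without mB4 and 0.0532 without mG3 for Pmvk and 0.0591 without mC3 and 0.0542 without mG3 for Mvd, and with all 10 libraries 0.247 and 0.162. On log2(FPKM + 1) that of Pmvk was 0.0764.

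Cell cycle genes moved in both directions. Of 32, 10 rose, 14 fell and 8 did not pass (median log2 change 0.06), where 29.5% of all genes rose and 26.2% fell. Among the rises, cyclin D2 (Ccnd2) was at 17.6 CPM in ES cells and 2578, 1980.3, 2148 and 2751 CPM in the clones (log2 change 7.07 ± 0.37, edgeR adjusted p = 0.000265), and Ccnd1, Ccne2, the inhibitors Cdkn1a, Cdkn2a, Cdkn2b and Cdkn2c and the retinoblastoma family Rb1, Rbl1 and Rbl2 also rose. Cdkn2c and Cdkn2a had log2 changes of 5.599 ± 0.37 and 3.60 ± 0.69. The falls held Cdk6, a kinase partner of the D cyclins (log2 change -4.31 ± 0.35, edgeR adjusted p = 0.000654), Trp53 (-1.76 ± 0.13) and all 6 genes of the MCM2 to MCM7 helicase that opens DNA for replication, of which Mcm2 and Mcm5 had log2 changes of -1.57 ± 0.16 and -1.65 ± 0.17. The cyclin E gene Ccne1 fell too (-1.98 ± 0.30), the other way from Ccne2.

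DNA methylation and the Polycomb complexes keep genes silent. Of 26 genes that write, read or remove these marks, 8 passed as higher, 15 fell and 3 did not pass (median log2 change -0.99). Dnmt3b, a de novo DNA methyltransferase, was at 1939.9 CPM in ES cells and 15.5, 26.8, 24.2 and 31.7 CPM in the clones (log2 change -6.30 ± 0.33, edgeR adjusted p = 0.000255), and the hydroxylase Tet1 had a log2 change of -3.39 ± 0.11 against 2.82 ± 0.24 for Tet3. Cbx7, the chromobox subunit of Polycomb repressive complex 1 in ES cells, was at 1232 CPM in ES cells and 16.7, 19.9, 15.8 and 14.4 CPM in the clones (log2 change -6.21 ± 0.17, edgeR adjusted p = 0.000126), while Cbx8 rose (4.15 ± 0.35). Bmi1, another subunit of that complex, was at 0.405 CPM in ES cells and 30.5, 32.0, 28.8 and 26.2 CPM in the clones (log2 change 6.18 ± 0.26, edgeR adjusted p = 0.000185). Dnmt3a was called higher from counts (log2 change 0.61 ± 0.13, edgeR adjusted p = 0.0114), whereas its FPKM was lower in the clones (38.6 in ES cells and 22.0, 19.6, 20.2 and 23.0 in the clones).

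Of 35 matrix and adhesion genes, 10 rose, 9 fell and 16 did not pass (median log2 change 0.35), shares close to the 29.5% and 26.2% of all genes. The laminin receptor Itga3 fell (log2 change -9.07 ± 0.76, edgeR adjusted p = 0.000689), as did Itgb4 (-6.50 ± 0.81) and the matrix protein Fn1 (-3.996 ± 0.45). Itga4 had 2 counts in ES cells, and its clone level was 417 times the ES level with a 95% counting interval of 115 to 3447 (adjusted p = 0.101 with all 10 libraries). Itgb8 rose (log2 change 6.81 ± 0.64, edgeR adjusted p = 0.000952). The laminin genes Lama1 and Lama3 were called lower with all clones, with an adjusted p of 0.0653 without mE6 and 0.0621 without mG3 for Lama1 and 0.0557 without mE6 and 0.0608 without mG3 for Lama3, and of 0.0501 for Lama1 with all 10 libraries. Of 13 housekeeping genes, 2 were called higher (B2m and Gapdh) and 2 lower (among them Tfrc), and 9 did not pass.

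The second question was how often a gene that both copies supplied in the ES line was supplied by 1 copy in a clone, or the reverse. A library could class a gene from 20 counts on. The gene was monoallelic if 85% or more of the counts came from 1 allele and biallelic if neither allele gave more than 70%, and testable means classed or lying between these limits. These classes are set by the measured shares and are given as counts, with no test. In ES cells 12178 autosomal genes were testable and 624 (5.12%, 95% Clopper-Pearson interval 4.74 to 5.53, counting error over genes only) were monoallelic. In the clones 12331 to 12439 genes were testable and 797, 857, 719 and 792 were monoallelic, which is 6.402 ± 0.457% (SD, n = 4). All 4 clones lay above the ES library, by 1.28 percentage points on average (exact permutation test over the 5 choices of the ES library, two-sided p = 0.2, the smallest that 4 against 1 allows). Over genes with at least 20 counts in all 5 libraries the difference was 0.300 points, and with clone counts thinned to the ES total 0.805 points. Just inside the upper limit, 42 genes in ES cells and 44 to 57 in a clone had a major share of 85 to 86%, and 33 and 38 to 53 genes lay just outside at 84 to 85%. At the lower limit, 113 to 141 genes of a library lay at 69 to 70% and 86 to 102 at 70 to 71%, and 941 to 1002 genes lay between both limits and were in neither class.

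Counted by gene, gain of monoallelic expression was most often seen in a single clone. Of 10246 genes biallelic in ES cells and testable in a clone, 732 (7.14%) were monoallelic in at least 1 clone, with 295, 324, 257 and 283 in the single clones (2.88 ± 0.276% of genes, SD, n = 4). Of the 732, 455 were monoallelic in exactly 1 clone, 169 in 2, 66 in 3 and 42 in all 4. Counted by clone, 102 to 142 of its 257 to 324 gained genes were gained there alone. Most of each clone's gains were thus met in another clone too. The 129 copy alone was used by 322 genes, the Cast copy alone by 362, and 48 used the 129 copy in one clone and the Cast copy in another. Taking any 2 clones, 27.8 to 42.1% of the genes gained in the first and testable in the second were monoallelic for the same copy there, 26.3 to 44.8% were biallelic, and 9 to 17 genes used the other copy. Many of these genes had few counts: the median count in ES cells was 497 for gained genes against 2168.5 for all biallelic genes. In the clones, where the gain is called, the median of the mean count was 189.75 for gained genes. It was 3058 for genes biallelic in ES cells and not gained. With at least 500 counts in all 5 libraries, 132 of 7338 genes (1.80%) were gained, 55 of them in 1 clone with the other three biallelic.

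**Figure D3:**
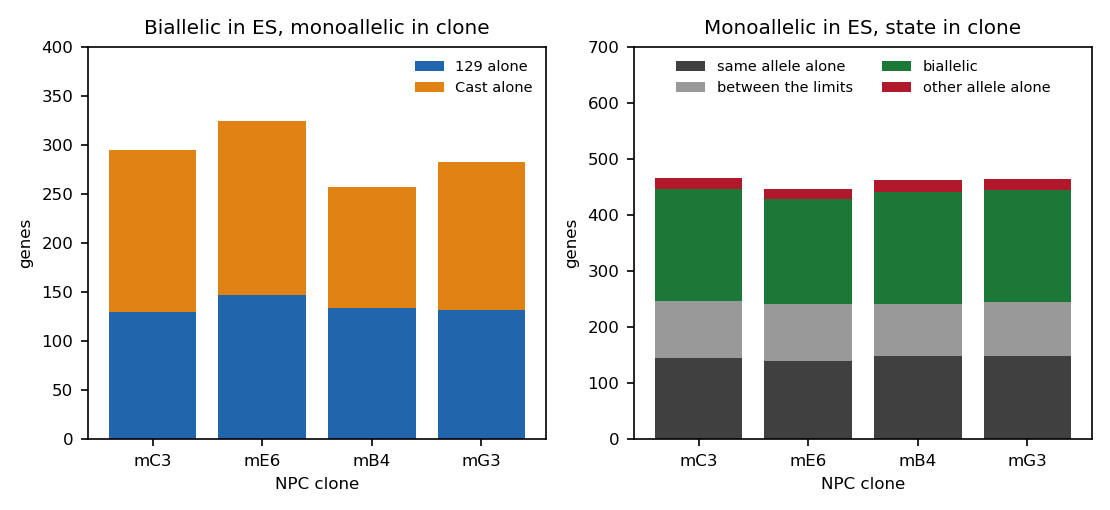
Stacked bars, from 0, count for each clone the autosomal genes that were biallelic in ES cells and monoallelic in the clone, by allele (left), and the state in the clone of the genes that were monoallelic in ES cells (right). Each clone has 257 to 324 gained genes from both alleles, and of the genes that used 1 allele in ES cells, 187 to 201 are biallelic, 139 to 149 keep the allele and 19 to 20 use the other.

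Promoter windows are shown for 4 genes that stand for the patterns described next, so that the sequence of a start site read from one copy in every clone, from either copy by clone, from one copy in some clones, or from one copy in ES cells only can be compared. They are RefSeq reference windows (build GRCm38.p6, the C57BL/6J genome, not the 129 or Cast copy) from 250 bases before to 50 after the start, with every CG dinucleotide, the site of DNA methylation, in capitals. Mt1 lies at chr8:94178839-94179138 (plus strand), 8430419L09Rik, whose RefSeq symbol is Fam234b, at chr6:135197737-135198036 (plus), Dis3l at chr9:64340724-64341023 (minus) and Tbc1d4 at chr14:101609142-101609441 (minus).
Mt1: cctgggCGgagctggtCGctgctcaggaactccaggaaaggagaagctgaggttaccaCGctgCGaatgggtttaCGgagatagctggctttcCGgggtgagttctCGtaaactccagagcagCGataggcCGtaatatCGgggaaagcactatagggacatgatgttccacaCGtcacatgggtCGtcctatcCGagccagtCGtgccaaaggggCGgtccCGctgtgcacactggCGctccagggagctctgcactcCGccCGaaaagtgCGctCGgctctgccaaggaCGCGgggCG
8430419L09Rik: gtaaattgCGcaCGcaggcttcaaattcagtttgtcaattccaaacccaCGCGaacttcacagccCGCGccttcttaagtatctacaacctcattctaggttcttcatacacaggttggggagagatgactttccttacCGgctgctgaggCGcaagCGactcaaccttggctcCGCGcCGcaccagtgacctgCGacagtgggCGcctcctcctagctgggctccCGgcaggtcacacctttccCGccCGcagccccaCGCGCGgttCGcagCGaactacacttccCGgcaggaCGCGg
Dis3l: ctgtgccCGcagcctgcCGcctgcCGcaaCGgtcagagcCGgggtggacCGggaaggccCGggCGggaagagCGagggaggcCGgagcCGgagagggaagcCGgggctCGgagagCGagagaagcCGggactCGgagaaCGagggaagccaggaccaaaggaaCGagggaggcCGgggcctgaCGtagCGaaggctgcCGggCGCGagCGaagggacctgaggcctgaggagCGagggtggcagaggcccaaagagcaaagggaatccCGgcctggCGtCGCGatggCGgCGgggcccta
Tbc1d4: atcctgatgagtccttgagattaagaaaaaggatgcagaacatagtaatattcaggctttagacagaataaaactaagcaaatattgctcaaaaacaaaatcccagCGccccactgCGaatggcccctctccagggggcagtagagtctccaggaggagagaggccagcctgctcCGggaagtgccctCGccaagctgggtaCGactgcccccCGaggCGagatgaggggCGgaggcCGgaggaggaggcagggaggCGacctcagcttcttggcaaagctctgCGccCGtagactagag
The motif searched was CG, which reads the same on both strands. The windows of Mt1, 8430419L09Rik, Dis3l and Tbc1d4 hold 24, 25, 32 and 12 CG dinucleotides. Among 27025 promoter windows, 1 per gene, the median was 7, 43.9% held at least 10 and 94.2% held at least 1. Of the 10246 genes biallelic in ES cells, 7815 (76.3%) matched a window by symbol, and there the median was 22 and 87.8% held at least 10. Tbc1d4 lies below that median and the other three lie above it. A comparison of gained with other genes by CG content is void, because only 71.2% of gained genes and 76.7% of the others matched a window.

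A small class was monoallelic for the same copy in all 4 clones. With at least 500 counts in every library and a name of a single gene, 9 genes did this. For the genes named here by class or by the allele test, the 95% Clopper-Pearson interval of a share reached at most 0.841 to 3.99 points to either side, depending on the gene, for counting error only. Mt1, which encodes a metal-binding metallothionein (chromosome 8, 96702989 to 96704227, mm9), had a 129 share of 34.7% in ES cells and 99.5, 99.6, 99.7 and 99.2% in the clones (log2 change of the 129:Cast ratio 8.57 ± 0.51, edgeR adjusted p = 0.00543). Its level was 129 CPM in ES cells and 56.1, 39.0, 38.1 and 41.3 CPM in the clones (log2 change -1.57 ± 0.22, edgeR adjusted p = 0.00323), so the ES library was the highest and the 4 clones lay close together. In the fit with all 10 libraries of both lines the adjusted p of the Mt1 allele shift was 0.0678. Ezr, which links membrane and actin, had a 129 share of 47.6% in ES cells and 87.9, 92.5, 92.9 and 86.6% in the clones, and its level fell (log2 change -3.71 ± 0.28, edgeR adjusted p = 0.000533). The RNA Miat, the ceramide synthase gene Lass4, the AMP deaminase gene Ampd3 and Rgs16, a regulator of G protein signalling, went the other way, toward Cast. Rgs16 had a 129 share of 47.8% in ES cells and 4.74, 5.23, 4.40 and 11.9% in the clones while its level was 43.3 CPM in ES cells and 553, 183, 228 and 399.9 CPM in the clones (log2 change 2.98 ± 0.77, edgeR adjusted p = 0.0235), with an adjusted p for the level of 0.0515 without mG3 and of 0.111 with all 10 libraries. Its allele shift (log2 change of the 129:Cast ratio -3.84 ± 0.68, edgeR adjusted p = 0.0411) had an adjusted p of 0.0924 without mC3, 0.0997 without mE6 and 0.0906 without mB4. Miat had a share of 59.2% in ES cells and 7.35, 1.19, 13.4 and 1.15% in the clones, Ampd3 of 51.7% in ES cells and 11.7, 9.90, 10.5 and 14.8% in the clones and Lass4 of 36.7% in ES cells and 0.879, 0.0668, 5.46 and 3.32% in the clones.

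Other genes used either copy, depending on the clone, and 8 such genes passed the same depth limit. 8430419L09Rik (chromosome 6, 135147910 to 135186258, mm9) had a 129 share of 56.7% in ES cells and 2.20, 99.8, 0.0348 and 0.0267% in the clones, so that mE6 used 129 and the other three used Cast, each almost alone. Its level was 28.7 CPM in ES cells and 51.2, 29.4, 41.2 and 43.0 CPM in the clones (edgeR adjusted p = 0.203). Lyplal1, a relative of lysophospholipases, had a 129 share of 55.9% in ES cells and 47.7, 99.8, 99.9 and 0.101% in the clones: mC3 kept both copies, mE6 and mB4 used 129, and mG3 used Cast. Scd1, the stearoyl-CoA desaturase that makes unsaturated fatty acids, was at 53.3% in ES cells and 99.9, 50.05, 45.6 and 0.362% in the clones, with opposite copies in mC3 and mG3 and both in mE6 and mB4. Its level was 98.0 CPM in ES cells and 289, 623, 488 and 235 CPM in the clones, higher in the pair of clones that used both copies. Anxa5, a membrane-binding annexin, had a share of 42.0% in ES cells and 1.297, 93.6, 39.5 and 36.9% in the clones and Ssbp4 of 47.5% in ES cells and 2.29, 53.1, 53.1 and 93.9% in the clones. Itpripl2 was at 54.8% in ES cells and 87.5, 44.1, 3.3998 and 50.9% in the clones. None of these 6 passed the allele test (edgeR adjusted p 0.556 to 0.986), which compares the clones as a group with ES cells.

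Of the genes monoallelic in exactly 1 clone with the other three biallelic, 52 passed the same limits. Il3ra, a chain of the interleukin-3 receptor, had a 129 share of 55.4% in ES cells and 47.5, 99.6, 33.5 and 50.8% in the clones, and its level was 71.1 CPM in ES cells and 41.1, 16.9, 44.2 and 31.4 CPM in the clones, lowest in mE6, the monoallelic clone. Lipa, the lysosomal acid lipase, was at 61.3% in ES cells and 53.5, 61.1, 52.5 and 0.0482% in the clones, with 30.8 CPM in ES cells and 57.7, 62.4, 55.7 and 23.8 CPM in the clones. Tnfrsf10b, a death receptor, had a share of 63.6% in ES cells and 56.4, 53.8, 3.52 and 58.0% in the clones, with 15.5 CPM in ES cells and 22.5, 22.4, 7.34 and 32.0 CPM in the clones. Get4, which helps insert tail-anchored membrane proteins, had a share of 51.4% in ES cells and 47.6, 45.9, 100 and 47.9% in the clones, with 77.5 CPM in ES cells and 35.7, 44.9, 16.0 and 46.9 CPM in the clones. In each of these 4 genes the monoallelic clone had the lowest level of the clones. So it was in Cpxm1, a carboxypeptidase relative, at 10.4 CPM in ES cells and 42.4, 11.8, 39.0 and 16.0 CPM in the clones, where mE6 was monoallelic. Acot11, a thioesterase, went against this. It was monoallelic in mE6, and its level was 8.98 CPM in ES cells and 6.89, 12.3, 12.6 and 17.7 CPM in the clones. The lowest clone there was mC3, which used both copies.

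Where 2 or 3 clones shared the copy, 29 genes passed. Dis3l, a cytoplasmic exosome nuclease (chromosome 9, 64154563 to 64189064, mm9), had a 129 share of 60.9% in ES cells and 99.8, 52.0, 37.3 and 99.9% in the clones, which is 129 alone in mC3 and mG3 and both copies in mE6 and mB4. Its level was 52.6 CPM in ES cells and 37.6, 74.0, 50.8 and 44.5 CPM in the clones (edgeR adjusted p = 0.959), and the clones with 129 alone were the lower pair. Nid1, a basement membrane linker, had a share of 60.0% in ES cells and 98.2, 96.2, 99.2 and 48.9% in the clones, monoallelic in all but mG3, and its level was 415 CPM in ES cells and 34.3, 17.8, 26.0 and 12.4 CPM in the clones (log2 change -4.20 ± 0.46, edgeR adjusted p = 0.00152), so that the clone with both copies was here the lowest. Bmp7, a BMP ligand, had a share of 55.5% in ES cells and 0.744, 12.2, 45.6 and 1.37% in the clones with a level of 12.9 CPM in ES cells and 78.7, 36.05, 80.8 and 40.2 CPM in the clones (log2 change 2.20 ± 0.62, edgeR adjusted p = 0.0305, and 0.0588 with all 10 libraries), and mB4, which kept both copies, was the highest. Zfp948, with a share of 50.6% in ES cells and 49.9, 2.06, 54.3 and 1.53% in the clones, had 17.6 CPM in ES cells and 38.0, 16.2, 32.4 and 8.24 CPM in the clones, again lower in the pair of clones with Cast alone. Capn5, a calpain protease, and Cd109, a surface protein, were also in this class.

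**Figure D4:**
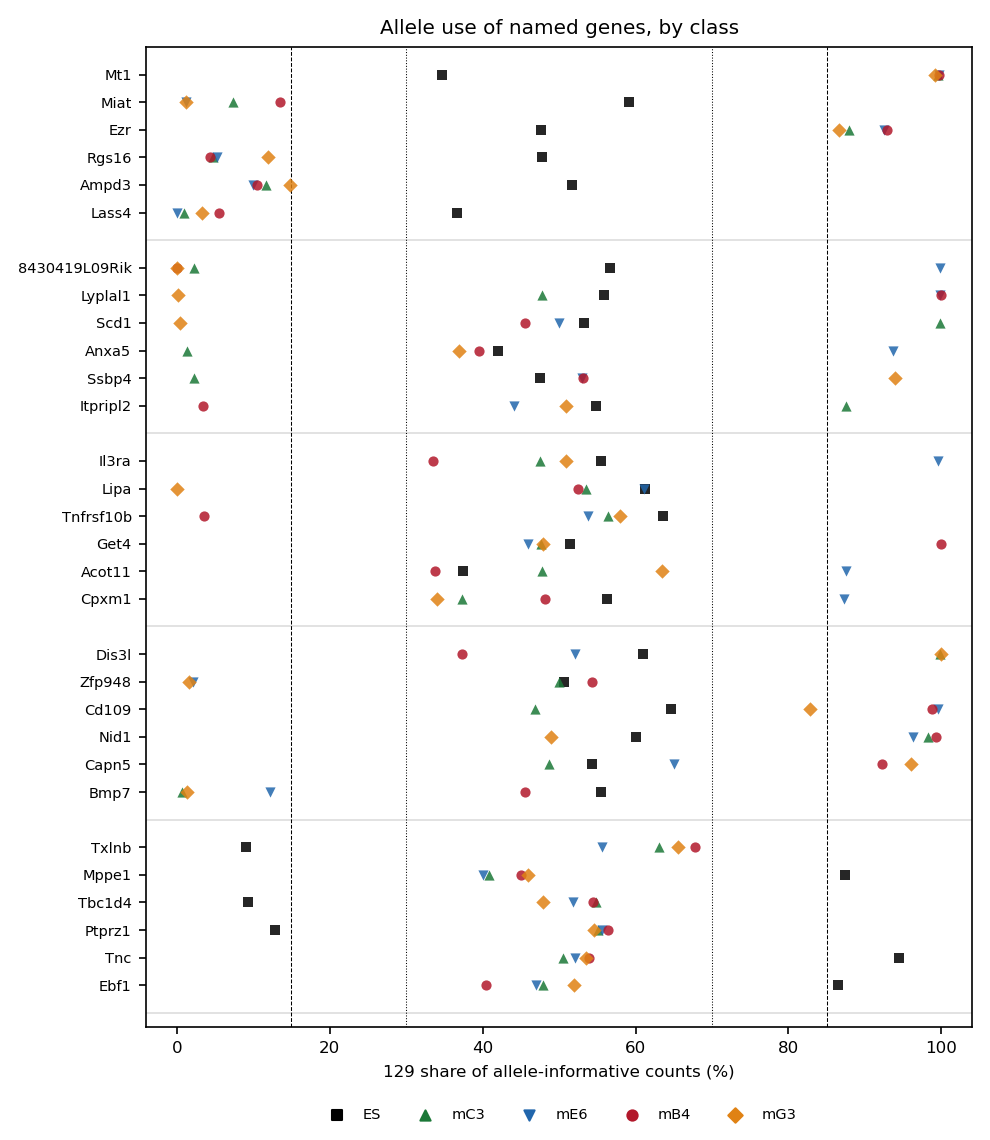
The 129 share of counts in percent (x axis) is drawn for the named genes in the ES library and each of the 4 clones, grouped by class, with dashed lines at the monoallelic and dotted lines at the biallelic limits. Mt1 lies near 100% in all clones, 8430419L09Rik lies at opposite ends in mE6 and the other clones, and Tbc1d4 moves from 9.37% in ES cells to about equal shares.

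In most gained genes the clones that used 1 copy had a lower level than those that used both. Over the 474 gained genes with both kinds of clone, the median log2 CPM difference, monoallelic minus biallelic clones, was -0.53, and 341 (71.9%) were lower. With at least 500 counts in all 5 libraries the median was -0.76 and 94 of 103 (91.3%) were lower. Over 6943 genes biallelic in all 5 libraries the median of a clone against the others was between -0.03 and 0.04. The scaling of the libraries also holds this median near 0. Allele share and level come from the same counts, the level being their sum over both alleles, so the lower level is not independent of the class. The clones of a gene are also single libraries, so these values carry no test.

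Gain was met among genes of every expression call. With at least 500 counts in all 5 libraries, 19 of 2168 genes called higher in the clones (0.876%), 29 of 2203 called lower (1.32%) and 84 of 2967 not called (2.83%) were gained. Over all genes biallelic in ES cells it was 70 of 2914 (2.40%), 259 of 3062 (8.46%) and 403 of 4270 (9.44%). A gene whose clones differ has a wider spread and passes the expression test less easily, so these shares are not independent of the rule. Gain in the listed genes biallelic in ES cells is read against the 7.14% of all genes at the same limit of 20 counts. It was met in 0 of 32 cell cycle genes, 0 of 26 DNA methylation and Polycomb genes, 0 of 18 cholesterol genes and 0 of 13 housekeeping genes. It was met in 3 of 25 Notch and 3 of 33 Wnt genes, and in 4 of 21 glycolysis, 4 of 8 neuronal and 3 of 4 oligodendrocyte genes. The 7.14% falls to 1.80% for genes with at least 500 counts in all 5 libraries, and the lists differ in level. The cell cycle genes summed to 8606 CPM in ES cells and the neuronal genes to 42.5 CPM. The lists are short and were not matched for depth, and differences between them were not tested. Ldha was 1 of the glycolysis genes: its 129 share was 47.8% in ES cells and 1.80, 50.2, 47.9 and 44.7% in the clones, and mC3, which used Cast alone, had the lowest level of the clones given above.

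Many genes that used 1 copy in the ES library used both in at least 1 clone. Of 624 such genes 524 were testable in a clone, and 300 of these (57.3%) were biallelic in at least 1 clone, 99 of them in all 4. The share was 48.3% with at least 100 counts, 48.6% with at least 500 and 39.0% with FPKM of at least 1. Per clone 201, 187, 201 and 199 genes were lost, which is 42.8 ± 0.706% (SD, n = 4) of those testable. Of the 404 genes monoallelic in ES cells with at least 20 counts in all 5 libraries, 80 kept the same copy in all 4 clones, 46 with 129 and 34 with Cast. In a single clone, 139 to 149 of the 447 to 467 testable genes kept it. Of the 524, 60 used the other copy in at least 1 clone. Genes monoallelic in ES cells were thinly covered: the median ES count was 63 for lost genes and 76.5 for all monoallelic ones. With at least 500 counts in all 5 libraries 29 of 58 (50%) were lost, and 0 used the other copy alone in a clone. Loss was met in 113 of 150 genes called higher in the clones (75.3%), in 23 of 58 called lower (39.7%) and in 164 of 316 not called (51.9%). A clone can class a gene only from 20 counts on, so these shares are not independent of the level in the clones. They were not matched for depth.

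Among deeply covered genes, 17 moved from 1 copy in ES cells to both in every clone, and Ptprz1 and Tnc among them are listed progenitor genes. Ptprz1, a receptor phosphatase of radial glia, had a 129 share of 12.8% in ES cells and 55.1, 55.7, 56.4 and 54.5% in the clones (log2 change of the 129:Cast ratio 3.08 ± 0.06, edgeR adjusted p = 0.000442), and its level was 10.9 CPM in ES cells and 3698, 3596, 4372 and 2319 CPM in the clones (log2 change 8.32 ± 0.60, edgeR adjusted p = 0.000470). Tnc, which encodes the matrix protein tenascin-C, had a share of 94.4% in ES cells and 50.5, 52.1, 53.9 and 53.5% in the clones (log2 change of the 129:Cast ratio -3.93 ± 0.10, edgeR adjusted p = 0.000630), with 38.0 CPM in ES cells and 3138, 2633, 1185 and 3153 CPM in the clones (log2 change 6.06 ± 0.82, edgeR adjusted p = 0.00283). In both genes the share was measured in ES cells at a low level and in the clones at a far higher one. Tbc1d4, a regulator of glucose transporter traffic (chromosome 14, 101838389 to 102008408, mm9), differed from them: its share was 9.37% in ES cells and 54.8, 51.8, 54.4 and 47.9% in the clones (log2 change of the 129:Cast ratio 3.402 ± 0.195, edgeR adjusted p = 0.00484), while its level was 58.1 CPM in ES cells and 45.1, 58.0, 47.4 and 60.3 CPM in the clones (edgeR adjusted p = 0.572). Mppe1, a phosphodiesterase, went from 129 to both copies (87.4% in ES cells and 40.9, 40.0, 45.0 and 45.9% in the clones) and its level rose (log2 change 1.70 ± 0.30, edgeR adjusted p = 0.00633). Txlnb and Ebf1 were at 9.10% in ES cells and 63.0, 55.7, 67.8 and 65.5% in the clones and 86.4% in ES cells and 47.9, 47.0, 40.4 and 52.0% in the clones, and the rise in level of Txlnb had an adjusted p of 0.0673 without mC3, 0.0732 without mE6 and 0.0644 without mG3 and that of Ebf1 of 0.0680 without mE6, 0.05001 without mB4 and 0.0700 without mG3. On log2(FPKM + 1) these were 0.146 and 0.0750, and with all 10 libraries that of Txlnb was 0.0555.

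The strain of the feeder cells is not given in the sources used here. Of the fibroblast list, 16 genes had at least 20 counts in ES cells, 14 of them had a 129 share over 50% and 6 of at least 70%, with a median of 63.2% and a range of 12.7 to 86.1%. Over all testable autosomal genes the median was 49.97%, 49.5% were over 50% and 7.88% were at least 70%. Pdgfrb stood at 86.1% and Postn at 85.1%. Of the 300 lost genes, 185 had been 129 and 115 Cast in ES cells, where all 624 genes monoallelic in ES cells split into 370 and 254. The part of feeder RNA in the ES classes was not tested.

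The allele test asks whether the clones as a group differ from the ES library in the ratio of 129 to Cast counts by more than clones differ among themselves. Of 10997 autosomal genes fitted, 418 (3.8%) shifted toward 129 and 516 (4.69%) toward Cast, 934 in all, and 2871 had an unadjusted p under 0.05. The count was smaller with 1 clone fewer: 371 without mC3, 268 without mE6, 385 without mB4 and 372 without mG3. Beyond the genes above, the largest shifts toward 129 included Sv2c, a synaptic vesicle protein, with a 129 share of 5.26% in ES cells and 52.8, 73.0, 64.9 and 70.3% in the clones and an adjusted p of 0.0508 without mB4. Toward Cast they included Wnt5a, with 98.6% in ES cells and 64.7, 65.1, 63.8 and 63.9% in the clones (log2 change of the 129:Cast ratio -5.23 ± 0.09, edgeR adjusted p = 0.000442), and Casq2, a calcium-binding protein, with 99.6% in ES cells and 68.99, 81.8, 61.2 and 76.6% in the clones and an adjusted p of 0.0544 without mC3 and 0.0521 without mG3. Casq2 remained on the 129 side of equal shares in every clone.

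Imprinted genes are a reference for stable use of 1 copy, since the copy is set by the parent. Of the listed ones, 16 known for paternal and 11 for maternal expression had at least 20 counts in all 5 libraries, and several varied from clone to clone. Peg3, a paternally expressed zinc finger gene that shares counts here with its antisense Apeg3, had a 129 share of 9.05% in ES cells and 0.00853, 0.0830, 51.9 and 0.0156% in the clones, and Mest, a paternally expressed hydrolase gene, of 13.1% in ES cells and 1.10, 0.110, 51.8 and 0.132% in the clones. In both, mB4 was biallelic and the other three clones used Cast. Usp29, next to Peg3, followed the same order with 17.0% in ES cells and 0.264, 1.12, 45.2 and 0.303% in the clones. Peg10, a gene derived from a retrotransposon, had a share of 20.2% in ES cells and 0.784, 0.00988, 0.0303 and 25.4% in the clones and its neighbour Sgce of 20.2% in ES cells and 1.23, 0.194, 0.107 and 2.97% in the clones, and there mG3 was the highest clone. Other paternally expressed genes were biallelic in ES cells: Impact was at 43.0% in ES cells and 50.05, 0.0248, 49.0 and 48.4% in the clones and Plagl1, a zinc finger gene, at 43.6% in ES cells and 54.6, 45.9, 0.365 and 73.9% in the clones, so that only mE6 used 1 copy of Impact and only mB4 of Plagl1. Peg12 was at 23.3% in ES cells and 45.9, 0.0785, 44.0 and 3.63% in the clones, and Inpp5f at 42.1% in ES cells and 50.2, 27.4, 26.6 and 25.8% in the clones.

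The Igf2r and Airn pair differed between clones in level as well as in allele. Airn, the paternal noncoding RNA that silences Igf2r in cis, had 79 counts in ES cells and 7175, 4257, 4327 and 64 counts in the clones, with a 129 share of 1.27% in ES cells and 0.251, 0.728, 0.0462 and 40.6% in the clones. Igf2r, the clearance receptor for insulin-like growth factor 2, had 6410 counts in ES cells and 6673, 5217, 4816 and 22126 counts in the clones, with a 129 share of 47.8% in ES cells and 68.9, 77.0, 71.1 and 35.8% in the clones. The clone with the least Airn, mG3, had the most Igf2r and the lowest 129 share of it. Airn starts within Igf2r on the other strand, and whether counting used strand is not given in the sources used here, so reads of the overlap cannot be told apart. The Kcnq1ot1 and Kcnq1 entries cannot be separated by their counts, and the Kcnq1ot1 entry had a 129 share of 16.0% in ES cells and 2.65, 0.0400, 61.8 and 56.0% in the clones. Cdkn1c, the growth inhibitor silenced in cis from that domain, had 1306 counts in ES cells and 605, 1415, 225 and 0 counts in the clones, with a 129 share of 82.8% in ES cells, 100% in mC3 and mE6 and 0.444% in mB4. Peg13 was at 2.50 CPM in ES cells and 28.9, 24.1, 23.3 and 0.0574 CPM in the clones (edgeR adjusted p = 0.367), with mG3 far below the other clones. In level, 6 of 20 paternal genes rose and 4 fell, and 6 of 20 maternal genes rose and 5 fell, close to the 29.5% and 26.2% of all genes, with H19, Rian, Grb10 and Ddc near 0 in the clones.

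**Figure D5:**
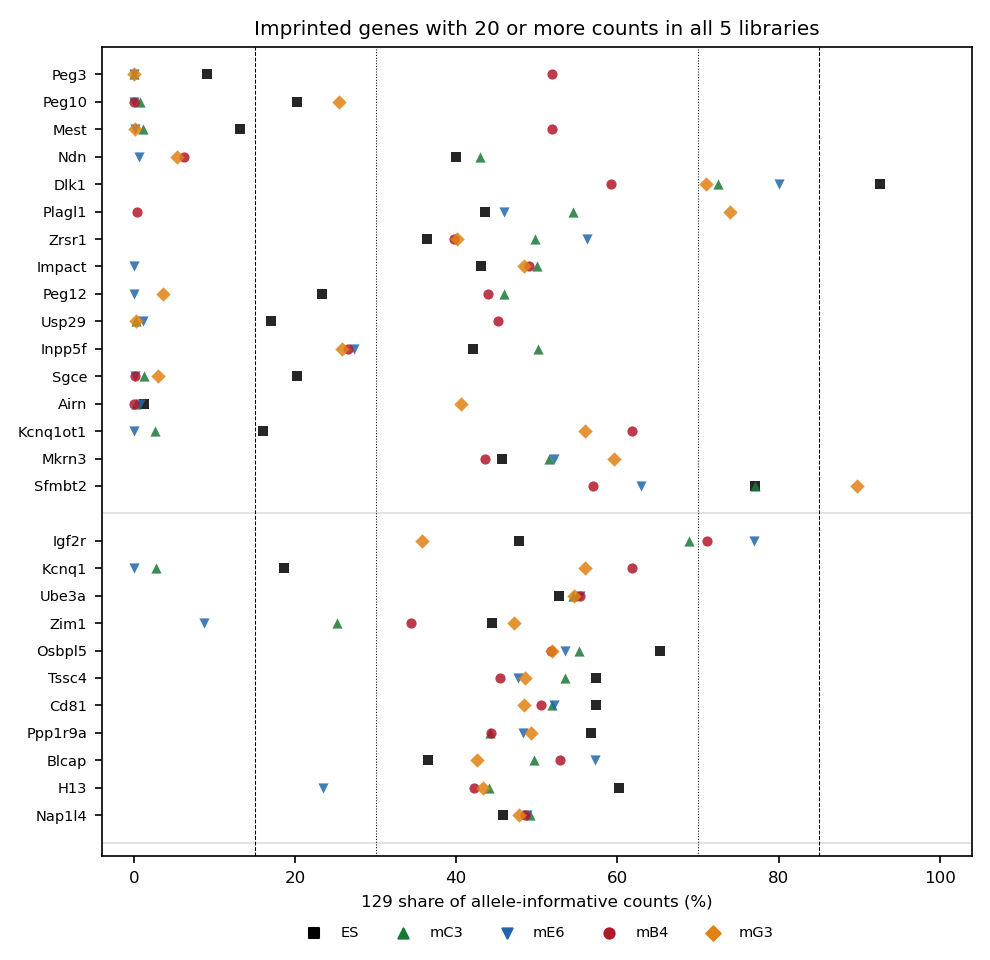
The 129 share of counts in percent is drawn for the imprinted genes with at least 20 counts in all 5 libraries, 16 known for paternal and 11 for maternal expression, in the ES library and each clone, with dashed lines at the monoallelic and dotted lines at the biallelic limits. Peg3, Usp29 and Mest lie near 50% in mB4 and near 0% in the other clones, and Impact lies near 0% in mE6 alone.

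Whole chromosomes stayed balanced. The median 129 share of each of the 19 autosomes lay between 49.1 and 50.4% in all 5 libraries. Over 380 windows of 5 Mb with at least 8 genes, the median share in a library ran from 39.6 to 64.7%. The nearest testable gene that did not overlap was monoallelic for the same copy for 18 of 295, 30 of 324, 25 of 257 and 11 of 283 gained genes (6.10, 9.26, 9.73 and 3.89%). For the other genes biallelic in ES cells the nearest was monoallelic for either copy in 5.76, 6.03, 5.11 and 5.94%. Both are descriptions, and the second counts either copy where the first counts 1. The second is therefore no baseline for the first, and whether gained genes cluster was not tested.

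The XX hybrid line F1-21.6, with its own ES library and 4 NPC clones, served as the comparison. Its NPC libraries carry another name prefix than those of F1-23, so line, sex and library set cannot be told apart. Each clone was classed against the 1 ES library of its line, so clones of a line share a reference. The permutation p-values below treat them as separate values and do not cover the spread between lines. Clone totals ran from 66611144 to 119266777 counts in F1-21.6 and from 72230497 to 91955553 in F1-23, and the part of depth in the differences was not tested. The clones of F1-23 gained monoallelic expression in 2.88 ± 0.276% of genes and those of F1-21.6 in 3.27 ± 0.840% (SD, n = 4 each), a difference of -0.388 points (exact permutation test, two-sided p = 0.514, 0.514 after Benjamini-Hochberg adjustment over 3 comparisons). They lost it in 42.8 ± 0.706% against 50.8 ± 2.72%, a difference of -7.94 points, with every F1-23 clone below every F1-21.6 clone (exact permutation test, p = 0.0286, the smallest that 4 against 4 allows, adjusted p = 0.0857). Of 9375 genes biallelic in both ES lines and testable in a clone of each, 502 were gained in F1-23 and 650 in F1-21.6. The 283 gained in both are 56.4% of the former and 43.5% of the latter, where 6.93% of all these genes were gained in F1-21.6. That share is over genes of all depths. Gain in F1-23 fell from 7.14% of genes to 1.80% with at least 500 counts in all 5 libraries. The overlap was not matched for depth, and the part of few counts in it was not tested.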

How the data were processed

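Polyadenylated RNA of the F1-23 ES line and of 4 NPC clones grown from it, 1 library each, was compared. Per the submitters' processing notes, the tools were SAMtools, Cufflinks 1.3.0 and TopHat 1.4.0 and the mouse build was mm9, and which step made which column is not given in the sources used here. The authors deposited 1 table with, per gene and library, a count, the 129 share of that count as a fraction, printed here as a percentage, and an FPKM value, which is scaled for depth and transcript length. The counts times the share were whole within 0.01 for all autosomal values, so the counts were taken as allele-informative. Starts in the table are counted from 0, and 1 was added. Counts were fitted in edgeR 4.0.16 (R 4.3.3; TMM factors, filterByExpr, quasi-likelihood F test) on 14441 genes, the X-linked ones included, with Benjamini-Hochberg adjustment. The allele test used 129 and Cast counts as columns with library as a block and the allele by cell type term, on 11353 genes. Classes needed at least 20 counts. DESeq2 1.42.0, limma 3.58.1 on log2(FPKM + 1) and log2(FPKM + 0.1), upper quartile factors, other count minimums, a major allele of 95% and leaving out each clone were alternatives. Both fits were run on simulated data, with a spread between clones that was set beforehand and not taken from these data. The simulation therefore does not give the error rates of the fits here. Depth limits only counting error: at the totals multiplied by their TMM factors, 3 counts are 0.0419 CPM in ES cells and 0.00915 CPM over the clones. Reads carry no molecular identifiers, so intervals cover counting error only. Nothing says that clones came from separate differentiations. In the expression text, the 8 largest rises and falls (at least 50 CPM in a library) and up to 4 members per list, plus members against the list's direction, were named, and in the allele text up to 6 per class and 5 per direction with at least 500 counts in each library. The members and lists were chosen with earlier results of these data known. 694 names join several genes and were not named. A few genes that the naming rule picked are not reported here.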

Additional observations from a re-analysis of the deposited data

Results flagged for a closer look

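In the 4 clones, a clone was taken as standing apart where its gap to the nearest other clone was at least the Dixon critical value (95%) for 4 values, as a part of the whole range. That was so in 26 of 249 sets of 4 values examined (10.4%). The critical value lets 5% pass where values are independent and normally distributed. The sets here hold linked genes, levels near 0 and genes named because clones differed, so the 10.4% cannot be set against 5%. Most of the allele shares that stood apart were of imprinted genes, which were examined by their counts and not by their shares. mB4 stood apart from 3 clones near 0% by a 129 share of 51.8% for Mest, 51.85% for Peg3 and 45.2% for Usp29. mG3 did so by a share of 25.4% for Peg10 and 40.6% for Airn, and by 254 CPM of Igf2r. mE6 stood apart with 0.0248% for Impact and 23.5% for H13, and mC3 with 42.9% for Ndn and 50.15% for Inpp5f, where the shares of the other clones were lower. Outside the imprinted genes, mG3 had the highest 129 share of Rgs16, 11.9%.

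Levels set a clone apart as follows. mG3 was lowest in Dock10 at 385 CPM and stood apart in Itga5 at 23.8 CPM. mE6 stood apart at 46.8 CPM in Ccne2, 40.5 CPM in Mbd2 and 57.7 CPM in Sv2c. mC3 stood apart at 40 CPM in Cdkn2b, 48.9 CPM in Lama1 and 15.4 CPM in Sfrp1, and mB4 at 28.4 CPM in Txlnb and 1.99 CPM in Opalin. Of genes near 0 in the clones, mC3 had 0.1435 CPM of Ascl2 where the others had 0, and mE6 had 0.0621 CPM of Cobl and 0.137 CPM of H19. In counts of genes, mE6 lost monoallelic expression in 187 genes where the other clones lost it in 199 to 201. Fewer genes were testable there, 447 against 462 to 467. As a share of testable genes mE6 did not stand apart, with 41.8% against 43.0% in mC3, 43.5% in mB4 and 42.9% in mG3. In mE6 19 genes used the other copy, against 20 in each other clone.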

How the results depend on the processing

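No paired analysis was possible because the ES line has 1 library and the clone numbers pair nothing. The counts of genes that rose and fell stayed within 1.5 times under every alternative run (3584 to 4619 and 3230 to 4339 with other tools, filters or scalings), and 77.1 to 99.4% of the calls were called again. No call changed direction from counts, while 46 did on log2(FPKM + 1), 51 on log2(FPKM + 0.1) and 30 with a mean FPKM of at least 1. Those named were Gapdh (-1.03, -1.32 and -1.03), Dnmt3a (-0.84, -0.86 and -0.84) and Kif7 (0.50, 0.59 and 0.50 on the log2 scale), where counts gave the opposite sign. The 934 allele shifts became 268 to 385 with 1 clone left out, 251 to 358 of them among the 934, and 738 to 1204 under the other fits. The 732 gained genes became 389 with at least 100 counts, 183 with at least 500, 410 at a major allele of 95% and 260 with FPKM of at least 1. The 300 lost genes became 158 with at least 50 counts, 97 with at least 100, 35 with at least 500, 133 at 95% and 55 with FPKM of at least 1. The monoallelic share differed by 0.805 points with thinned clones and by 0.300 points over genes testable in all 5 libraries. Stricter settings keep fewer genes by construction, and the cause of the other differences was not tested. Leaving out 1 clone gave 590 to 630 gained and 275 to 284 lost genes. For named genes, 65 of 860 log2 changes with 1 clone left out missed the threshold in the same direction, and so did 67 of 1482 under the other settings. Of these 67, 32 came from the fit with all 10 libraries, where 183 named calls held, and 11 from log2(FPKM + 1).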
